A study of Mus musculus with 20 samples.

Results

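The 10 genes described here encode receptors for dopamine (Drd1, Drd2 and Drd5) and for serotonin (Htr1a, Htr1b, Htr2a, Htr2c, Htr4, Htr5a and Htr7). They were chosen by name from the 25190 genes of a table of raw RNA sequencing counts, and all 10 were found there, each once. The table holds 20 libraries of mouse hippocampus, 5 in each of 4 groups. All mice were wild-type C57BL/6JOlaHsd males labelled as 4 months old that carried bilateral cannulas placed in dorsal CA1, a field of the hippocampus. The Vehicle group was infused with artificial cerebrospinal fluid, and the Control group with small RNAs (sRNAs) that had been pooled from hippocampi of people free of psychiatric disorders. For Pool 1 and Pool 2 the infused sRNAs came from patients with schizophrenia, a separate cohort for each pool. The mice of a group share 1 injected pool, so the spread between libraries says nothing about the spread between donors, and the labels do not tie libraries to litters or cages. P-values below therefore measure only the spread between these samples.

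Both receptor families are found throughout the forebrain and are the targets of most antipsychotic drugs. Every one of these 10 genes encodes a G protein-coupled receptor. Those of Drd1, Drd5, Htr4 and Htr7 stimulate adenylyl cyclase and raise cyclic AMP, those of Drd2, Htr1a, Htr1b and Htr5a act on inhibitory G proteins, and those of Htr2a and Htr2c activate phospholipase C. In the hippocampus, Htr1a is known as a major inhibitory receptor of pyramidal neurons and Drd5 as an abundant dopamine receptor there. Drd1 and Drd2 are known above all from the striatum, and Htr2c from the epithelium of the choroid plexus, which lies against the hippocampus in the ventricle.

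No receptor gene was too low to compare. The limit was a mean normalized count of 10 over the 20 libraries, and the lowest of the 10 genes, Drd2, had a mean of 70.5, with raw counts of 31 to 143. Drd1 followed with a mean of 111 and Htr7 with 190, while Htr1a had the highest mean, 1061. Library totals lay between 20588280 and 25543939 counts. Precision differed more than depth. The biological coefficient of variation within groups, estimated by edgeR, was 12.1% for Drd5, 16.9% for Htr5a, 29.4% for Drd1 and 45.8% for Htr2c. The 95% interval of a log2 fold change accordingly reached 0.22 to either side for Drd5 and 1.04 for Htr2c. Htr2c was the only one of the 10 genes with an interval reaching more than 1 to either side.

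The genes lie on chromosomes 5, 9, 13, 14, 18, 19 and X of GRCm38. Htr1a (chr13:105443639-105448122) and Drd5 (chr5:38319367-38322518) have a single exon in GENCODE M21, while Htr2a spans chr14:74640840-74709494 with 3 exons and Drd2 spans chr9:49340627-49408177 with 8. Drd1 lies at chr13:54051183-54055705 and Htr1b at chr9:81628291-81633828. Htr2c, at chrX:146962513-147197277, hosts a small nucleolar RNA and several microRNA genes on its own strand. In 2 places a neighbour overlaps in the opposite orientation. Gm26560 lies antisense to Drd5 and had 4 to 24 counts per library, and D430036J16Rik lies antisense to Htr1b and had 24 to 95. The library kit marks strand, but which strand setting was counted is not given in the sources used here, so a small part of the Drd5 and Htr1b counts may belong to these neighbours.

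Compared per length of exon, the 10 genes fell into a clear top, a crowded middle and a low end. Htr1a had the highest level, 10.2 ± 2.14 CPM per kb (SD, n = 20 libraries), where CPM is the count scaled to the size of the library. Drd5 followed with 6.35 ± 0.906 CPM per kb. Htr1a exceeded Drd5 in 20 of 20 libraries, and Drd5 in turn exceeded Htr2a in 20 of 20. From Htr2a, at 3.50 ± 0.930 CPM per kb, down to Htr5a, at 2.20 ± 0.389, neighbours in the order did not separate. Htr2a exceeded Htr1b in 11 of 20 libraries, Htr1b exceeded Htr2c in 13, Htr2c exceeded Htr4 in 10, Htr4 exceeded Htr7 in 12 and Htr7 exceeded Htr5a in 11. Drd1 (1.32 ± 0.455 CPM per kb) lay below Htr5a in 19 of 20 libraries. Drd2 was lowest at 1.19 ± 0.388 CPM per kb, and Drd1 exceeded it in only 12 of 20. Among the dopamine receptors, then, the level of Drd5 stood far above those of Drd1 and Drd2.

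**Figure D1:**
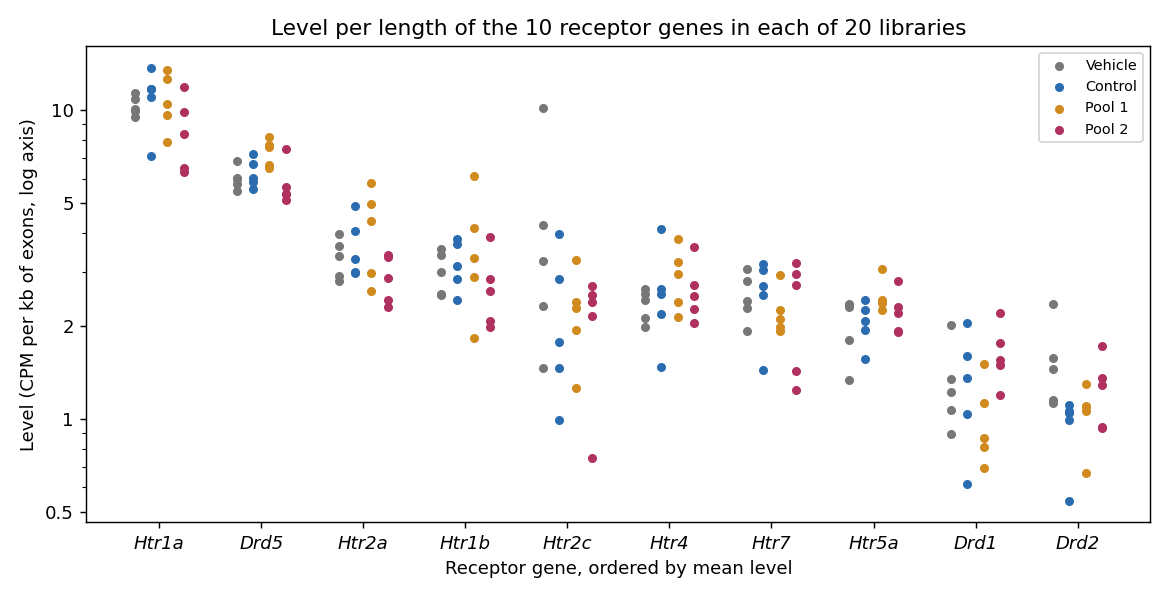
Level of each receptor gene in CPM per kb of exons (vertical, log axis), with 1 point per library coloured by group and genes ordered by mean level. Htr1a and Drd5 stand apart at the top, Drd1 and Drd2 at the bottom, and Htr2c has the widest spread, from 0.750 to 10.2.

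The stretches directly upstream of the annotated start are shown for 4 genes, Htr1a, Htr1b and Drd5, whose levels moved together across libraries as described below, and Drd1, which moved against them. They come from the RefSeq table of promoters for GRCm38.p6, which held 9 of the 10 genes, are written 5′ to 3′ on the gene's own strand, and were trimmed to end before the first transcribed base. Capitals mark matches, on either strand, to the GC box with the letters GGGCGG or to the CCAAT box, named by its letters.
Htr1a (chr13:105443443-105443638, plus strand): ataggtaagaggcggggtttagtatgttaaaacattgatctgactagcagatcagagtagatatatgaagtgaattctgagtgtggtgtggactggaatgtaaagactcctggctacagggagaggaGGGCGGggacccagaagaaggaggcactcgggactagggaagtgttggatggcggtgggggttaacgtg
Htr1b (chr9:81633833-81634082, minus strand): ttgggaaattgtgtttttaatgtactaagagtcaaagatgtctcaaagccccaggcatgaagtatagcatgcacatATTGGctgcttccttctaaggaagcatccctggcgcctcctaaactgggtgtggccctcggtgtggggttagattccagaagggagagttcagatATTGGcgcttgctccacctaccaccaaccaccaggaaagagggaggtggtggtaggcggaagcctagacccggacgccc
Drd5 (chr5:38319259-38319366, plus strand): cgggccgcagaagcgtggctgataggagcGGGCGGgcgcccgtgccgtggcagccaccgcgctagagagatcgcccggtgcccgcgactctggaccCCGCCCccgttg
Drd1 (chr13:54055706-54055908, minus strand): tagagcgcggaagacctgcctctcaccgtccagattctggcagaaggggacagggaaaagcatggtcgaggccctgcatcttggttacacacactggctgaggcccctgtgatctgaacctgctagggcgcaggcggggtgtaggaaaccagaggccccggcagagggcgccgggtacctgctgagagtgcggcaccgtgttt
In the full 250 bases before the RefSeq start, Htr1a and Drd5 held a GC box, as did 32.7% of 32851 promoters, and Htr1b held a CCAAT box, as did 33.8%. Drd1 held neither, while Drd2, which is not shown and also moved against Htr1a and Drd5, held a GC box. No match to TATAAA (12.4% of promoters), to TGACGTCA, the cyclic AMP response element (1.55%), or to CACGTG, an E box (6.02%), was found in the windows of the 4 genes shown. The 3 genes that moved together thus shared no motif among the 5 searched. The G and C content of the 250 bases was 71.2% in Drd5, 64.0% in Drd1, 52.4% in Htr1b and 50.4% in Htr1a, against a median of 52.4% over all promoters. Binding to these stretches was not measured.

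Each pool was first compared with Control, so that both sides had received human sRNAs. The study states that patient donors were mainly male, while the Control pool held both sexes, and that antipsychotic exposure differed across patients. Patient status cannot be told apart from donor sex or drug exposure here. A gene was counted as higher or lower if edgeR put its log2 fold change at 0.3 or more in size with p under 0.05 before adjustment. For single genes an exact permutation test, two-sided and not adjusted, of mean log2 CPM between the 5 and 5 libraries is given beside edgeR, and its smallest possible value is 0.00794. In Pool 1, 0 of 10 receptor genes passed in either direction, where 3.48% of all 25190 genes did. By edgeR 1 of 10 had an unadjusted p-value under 0.05, beside 1314 of all 25190 genes. DESeq2 also gave 0 past the threshold and 1 under 0.05. That gene was Drd5, with 20.96, 25.82, 24.26, 20.56 and 23.92 CPM in Pool 1 against 22.67, 18.96, 18.46, 17.45 and 21.09 CPM in Control. The 3 highest Pool 1 libraries lay above every Control library, and the other 2 lay within the Control range. The log2 fold change of Drd5 was 0.23 (SE 0.106, edgeR p = 0.0413, adjusted p = 0.917, exact permutation p = 0.0476), under the size threshold. The largest difference in Pool 1 belonged to Drd1, at −0.41 (95% interval −0.98 to 0.16, edgeR p = 0.150, exact permutation p = 0.349). For no receptor gene were the 5 Pool 1 libraries separated from the 5 Control libraries, as they were for 0.861% of all genes.

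In Pool 2, too, 0 of 10 receptor genes passed against Control, beside 6.22% of all genes. In edgeR 0 of 10 had an unadjusted p-value under 0.05, beside 1939 of all 25190 genes. The nearest was Htr1a. The count past the threshold went from 0 to 1 through Htr1a in some alternatives and through Htr2a or Htr7 in others. Htr1a had 44.10, 28.31, 37.50, 29.13 and 53.13 CPM in Pool 2 against 61.60, 49.59, 52.57, 31.96 and 52.4 CPM in Control. Pool 2 replicates 2 and 4 lay below every Control library, and the ranges overlapped. Htr1a had a log2 fold change of −0.37 (SE 0.177, 95% interval −0.74 to 0.00, edgeR p = 0.0503, adjusted p = 0.651, exact permutation p = 0.143). DESeq2 counted Htr1a as lower (log2 fold change −0.38), as did 4 other alternatives, and leaving out single libraries moved its log2 fold change between −0.51 and −0.28. Summed markers of the thalamus, which borders the hippocampus, were 329 CPM in Pool 2 replicate 2 and 560 CPM in replicate 4, the highest of all libraries. Without these 2 libraries the log2 fold change of Htr1a was −0.16 and did not pass. They also held the lowest Htr1a values of Pool 2, so leaving them out makes the difference smaller whatever their thalamus content. The part of thalamus tissue in the Htr1a value was not tested. Because the samples are bulk tissue, fewer cells that express a receptor and less receptor RNA per cell cannot be told apart here.

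The remaining receptor genes in Pool 2 had log2 fold changes from −0.34 for Htr2a (exact permutation p = 0.103) to 0.39 for Drd2 (exact permutation p = 0.151). Drd2 had 2.38, 3.27, 3.46, 4.38 and 2.41 CPM in Pool 2, with 3 libraries above every Control library. For none of the 10 were the Pool 2 and Control libraries separated, as they were for 1.05% of all genes. Without the 2 thalamus-rich libraries Htr7 passed instead (log2 fold change −0.54), with 4.20, 9.21 and 4.85 CPM left in Pool 2 against 4.91 to 10.82 CPM in Control. The 2 libraries left out held the highest Htr7 values of Pool 2, 10.90 and 10.02 CPM, so leaving them out lowers Htr7 in Pool 2 whatever their thalamus content.

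**Figure D2:**
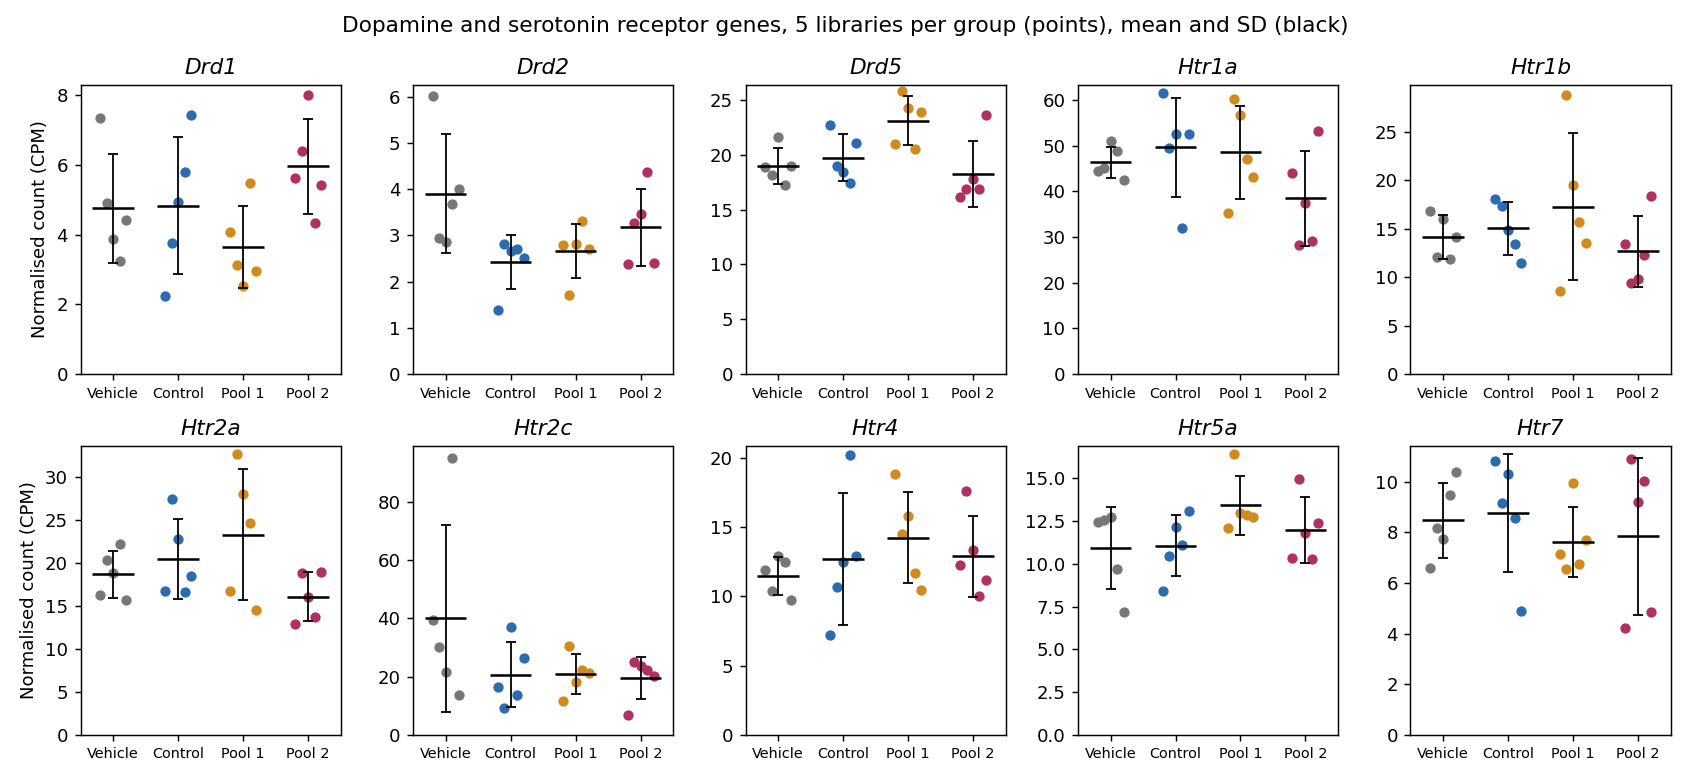
Normalised count (CPM, vertical, starting at 0) of each receptor gene in the 5 libraries of each group (points), with the group mean and SD in black. Groups overlap in most panels. Drd5 is highest in Pool 1 (20.56 to 25.82 CPM), and 1 Vehicle library reaches 94.99 CPM for Htr2c.

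The most receptor genes passed when the patient pools were compared with each other. Pool 2 against Pool 1 gave 3 of 10 past the threshold, 1 higher and 2 lower, beside 6.82% of all genes. None had an adjusted p-value under 0.05, and 0 of 10 were separated between the pools, as 1.41% of all genes were. These comparisons share libraries with those against Control, so the 3 are not separate evidence. Over the 10 genes the median log2 fold change was −0.15, beside 0.02 over all genes, with 7 of 10 below 0.

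Drd1, which encodes the main stimulatory dopamine receptor of the striatum, was higher in Pool 2. Its values were 5.62, 6.39, 8.0, 4.34 and 5.41 CPM in Pool 2 against 4.09, 3.14, 2.52, 5.47 and 2.95 CPM in Pool 1. Pool 2 replicates 1, 2 and 3 lay above every Pool 1 library, while Pool 1 replicate 4 lay within the Pool 2 range. The difference was 0.71 on the log2 scale (SE 0.273, edgeR p = 0.0162, adjusted p = 0.442, exact permutation p = 0.0238). Control, with 2.24 to 7.43 CPM, covered nearly the whole range of both pools. Without Pool 2 replicate 3 the log2 fold change of Drd1 was 0.58, no longer past the threshold.

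Drd5, the other stimulatory dopamine receptor gene, went the opposite way and was lower in Pool 2. It had 16.18, 16.9, 17.75, 16.9 and 23.58 CPM in Pool 2, against 20.56 to 25.82 CPM in Pool 1. Of the 5 Pool 2 libraries, 4 lay below every Pool 1 library, and replicate 5 lay within the Pool 1 range. Its log2 fold change was −0.34 (SE 0.106, edgeR p = 0.00379, adjusted p = 0.336, exact permutation p = 0.0238), the lowest edgeR p-value among the receptor genes in any comparison. It lay close to the size threshold and came to −0.30 without Pool 1 replicate 2 and likewise without Pool 2 replicate 1, where it fell just short of the required size.

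Htr2a, a phospholipase C-coupled serotonin receptor gene known as the target of psychedelic drugs, was also lower in Pool 2. Its values were 12.93, 18.77, 16.04, 13.65 and 18.99 CPM in Pool 2 against 16.71, 32.64, 27.95, 24.61 and 14.53 CPM in Pool 1. In Pool 1, 3 libraries exceeded every Pool 2 library, and the other 2 lay within the Pool 2 range. The difference was −0.53 on the log2 scale (SE 0.195, edgeR p = 0.0125, adjusted p = 0.415), but the exact permutation test gave p = 0.0952. Leaving out Pool 1 replicate 2, the highest library for Htr2a, gave −0.38, no longer past the threshold.

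The inhibitory serotonin receptor genes had values of the same sign without passing. In Pool 2 against Pool 1, Htr1a had a log2 fold change of −0.34 (exact permutation p = 0.143) and Htr1b of −0.45 (exact permutation p = 0.286). The Pool 1 libraries spread widely for Htr1b, with 8.62, 28.83, 19.56, 15.69 and 13.58 CPM. Without Pool 2 replicate 5 both passed (Htr1a −0.48, Htr1b −0.62) and 5 of 10 receptor genes were past the threshold, and without Pool 1 replicate 2 only Drd1 remained, 1 of 10. Without Pool 1 replicate 1 the count was also 5.

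Htr4, Htr5a and Htr7 did not pass in any of the 4 comparisons over the 20 libraries. Htr4, whose receptor raises cyclic AMP, had 10.06 to 17.64 CPM in Pool 2, 10.46 to 18.81 CPM in Pool 1 and 7.24 to 20.24 CPM in Control. Htr5a was among the steadiest of the genes, with 10.27 to 14.99 CPM in Pool 2 and 12.10 to 16.45 CPM in Pool 1, and its largest log2 fold change was 0.28 in Pool 1 against Control (exact permutation p = 0.0714). Htr7 had log2 fold changes between −0.20 and 0.05 in the 4 comparisons, each with a 95% interval reaching 0.49 to either side.

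**Figure D3:**
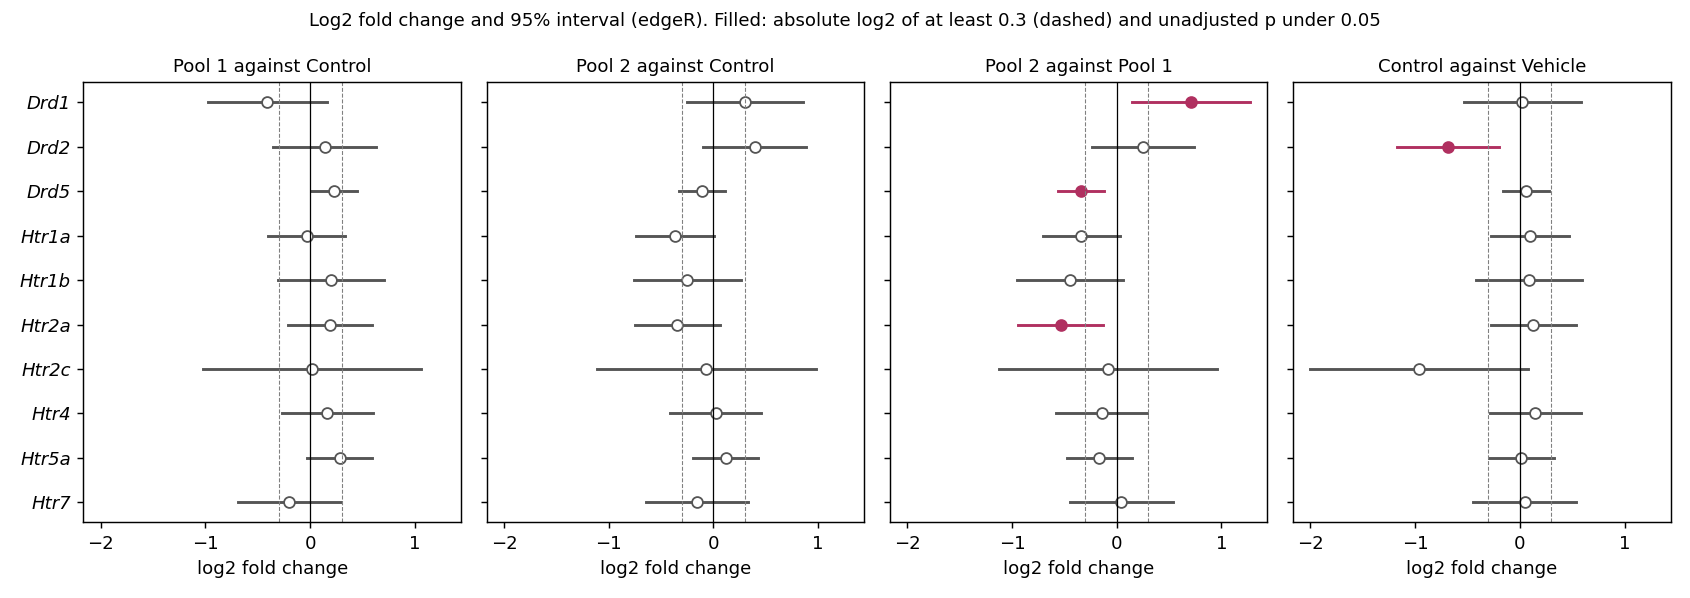
Log2 fold change (horizontal) with its 95% interval for the 10 receptor genes in 4 comparisons by edgeR. Filled red points were 0.3 or more from 0 (dashed lines) with p under 0.05 before adjustment, namely Drd1, Drd5 and Htr2a in Pool 2 against Pool 1 and Drd2 in Control against Vehicle.

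Control was also compared with Vehicle, which sets infusion of human sRNAs with no patient material beside infusion of artificial cerebrospinal fluid. Drd2, the inhibitory dopamine receptor gene, was the 1 of 10 receptor genes that passed, beside 5.1% of all genes. It had 1.39, 2.82, 2.67, 2.70 and 2.52 CPM in Control against 6.02, 2.94, 2.87, 3.69 and 4.00 CPM in Vehicle. All 5 Control libraries lay below all 5 Vehicle libraries, a separation seen for 0.607% of all genes, though the gap between the highest Control and the lowest Vehicle library was small, 2.82 to 2.87 CPM. The log2 fold change of Drd2 was −0.69 (SE 0.235, edgeR p = 0.00749, adjusted p = 0.734), and the exact permutation p was 0.00794, the smallest it can be. Without Vehicle replicate 1 the value was −0.47 and did not pass. That library also had the highest sum of 8 striatum markers, 53.5 CPM, against 26.4 to 34.7 CPM in the other 19, and the highest Drd1 level of the Vehicle group, 7.33 CPM. The part of striatal tissue in the Drd2 value was not tested.

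Htr2c gave the largest difference of any receptor gene between Control and Vehicle and still did not pass. Its Vehicle values were 39.60, 30.26, 21.72, 94.99 and 13.59 CPM and its Control values 16.59, 9.24, 37.06, 13.60 and 26.58 CPM. Vehicle replicates 1 and 4 lay above every Control library, and the rest overlapped. Choroid plexus markers differed in the same direction, with 3 of 11 lower in Control than in Vehicle, where 5.1% of all genes passed. Their median log2 fold change over the 11 was −1.68, with sums of 295 to 3439 CPM in Control and 454 to 12600 CPM in Vehicle. The log2 fold change of Htr2c was −0.96 (95% interval −2.00 to 0.08, edgeR p = 0.0679, adjusted p = 0.751, exact permutation p = 0.222), and −0.36 without Vehicle replicate 4. Htr2c did pass as lower with edgeR's default spread, and without Vehicle replicate 3, Vehicle replicate 5 or Control replicate 3, reaching −1.28 without the last of these. Taking the 4 groups at once, 2 of 10 receptor genes differed somewhere with p under 0.05 before adjustment, Drd2 (adjusted p = 0.593) and Drd5 (adjusted p = 0.555), beside 7.86% of all genes.

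Markers of regions and cell types differed between libraries, and several receptor genes varied with them. The sums of marker genes were taken from 9 lists of regions and cell types and 1 list of RNAs without a poly(A) tail. Markers of CA1 pyramidal neurons (448 to 1178 CPM), of dentate granule cells (230 to 674 CPM) and of CA2 and CA3 pyramidal neurons (232 to 525 CPM) were present in every library, so other hippocampal fields were sampled beside CA1. Choroid plexus markers ranged from 256 to 12600 CPM, with the highest sums in Vehicle replicate 4, Control replicate 3 (3439 CPM) and Pool 2 replicate 3 (2262 CPM). Thalamus markers ranged from 134 to 560 CPM in Pool 2 and from 118 to 150 CPM in Pool 1. Of the 8, 6 were higher in Pool 2 than in Pool 1, where 6.82% of all genes passed in either direction. Against Control, 5 of 8 were higher in Pool 2, beside 6.22% of all genes. RNAs without a poly(A) tail moved with the groups, and whether they reflect library quality was not tested. All 4 of those measured were higher in Pool 1 and in Pool 2 than in Control (median log2 fold changes 2.39 and 2.40), 2 of 4 were lower in Control than in Vehicle (median −1.28), and 0 of 4 passed between the pools. Of all genes, 3.48%, 6.22%, 5.1% and 6.82% passed in these comparisons, in the same order. The study had already listed Rn7sk, Gm42418, Gm26917 and Mir6236 of this list as higher in both pools from these same data. The count against Control is therefore no separate evidence. Their sums were 477 to 1582 CPM in Control, 556 to 4470 CPM in Vehicle, 1534 to 12600 CPM in Pool 1 and 3013 to 8415 CPM in Pool 2. Their part in the comparisons with Control was not tested. No listed marker found in the table was at 0 in any library. Correlations between the 10 receptor genes and the 10 lists were computed over the 20 libraries on the log2 scale, 100 relations in all, with p-values from permutation tests of 100000 resamples adjusted over the 100. The compared values of a library share its depth and normalisation. With the RNAs without a poly(A) tail, r lay between −0.42 and 0.31 for the 10 genes, and no adjusted p-value was under 0.05.

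Htr2c followed the choroid plexus markers. Its Pearson's r with the choroid plexus sum was 0.76 (Spearman's rho 0.63, adjusted permutation p = 0.0020 and 0.0459). The 94.99 CPM of Htr2c in Vehicle replicate 4 stood beside a choroid plexus sum of 12600 CPM, and the 6.99 CPM in Pool 2 replicate 1, its lowest value, beside 278 CPM. Without the 2 libraries farthest from the median sum, r was 0.51 (permutation p = 0.0313), and within groups it was 0.73. The 3 genes most like Htr2c over the 20 libraries were Vat1l (r = 0.86), Ace (0.84) and Emb (0.83), and without the 2 libraries farthest from the median of each gene these values were 0.69 to 0.72.

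Htr1a, Htr1b and Drd5 followed the CA1 pyramidal neuron markers. Pearson's r was 0.83 for Htr1a, 0.76 for Htr1b and 0.75 for Drd5, with Spearman's rho of 0.76, 0.72 and 0.74 and adjusted permutation p-values for r of 0.0010, 0.0027 and 0.0032. Without the 2 farthest libraries r was 0.77, 0.66 and 0.67, and within groups it was 0.88, 0.74 and 0.72. The same genes had positive values with interneuron markers (r = 0.58 to 0.63). Htr1a was also lower where thalamus markers were higher (r = −0.81, rho = −0.58, adjusted permutation p = 0.0020 and 0.0556), with r = −0.67 without Pool 2 replicates 2 and 4. Drd5 had r = −0.58 with the same markers. CA1 marker sums in Pool 2 were 448 to 966 CPM and in Pool 1 462 to 1178 CPM. At the same threshold, 1 of 6 CA1 markers was lower in Pool 2 than in Pool 1, beside 6.82% of all genes in either direction.

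Drd1 followed the markers of dentate granule cells. Its r with dentate granule cell markers was 0.71 (rho 0.77, adjusted permutation p = 0.0071 and 0.0080), or 0.86 without Pool 1 replicate 1 and Control replicate 4, and its r with CA2 and CA3 markers was −0.64. Calb2, which encodes the calcium-binding protein calretinin, a known marker of hilar mossy cells and of some interneurons, was the gene most like Drd1 over the 20 libraries among 14796 compared (r = 0.83), followed by Necab3 and Spsb1 (0.82 each). Dentate marker sums were 394 to 576 CPM in Pool 2, where Drd1 was higher, and 230 to 674 CPM in Pool 1. Between the pools 0 of 6 dentate markers passed, beside 6.82% of all genes. Htr4 also had a positive r with the dentate markers (0.63), but it rested on Pool 1 replicate 1 and Control replicate 4 and was 0.40 without them (permutation p = 0.0984).

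Htr7 followed the markers of neocortex and of CA2 and CA3. It had r = 0.74 with neocortex markers and 0.72 with CA2 and CA3 markers (rho = 0.60 and 0.59, adjusted permutation p for r = 0.0035 and 0.0046), or 0.60 and 0.66 without the 2 farthest libraries. The low Htr7 values of Control replicate 5 (4.91 CPM) and Pool 2 replicates 1 and 5 (4.20 and 4.85 CPM) stood beside CA2 and CA3 sums of 232, 282 and 309 CPM, which were among the lowest 4. Nrip3 (r = 0.82), Prdm8 and Cpne4 (0.80 each) were the genes most like Htr7. Htr2a had r = 0.65 with interneuron markers (rho 0.63), and 0.52 without the 2 farthest libraries. Drd2 and Htr5a had no adjusted p-value under 0.05 with any list, and the highest r of Drd2 was 0.54, with the striatum markers (rho 0.19). That value rested on Vehicle replicates 1 and 2 and was 0.15 without them (permutation p = 0.557).

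**Figure D4:**
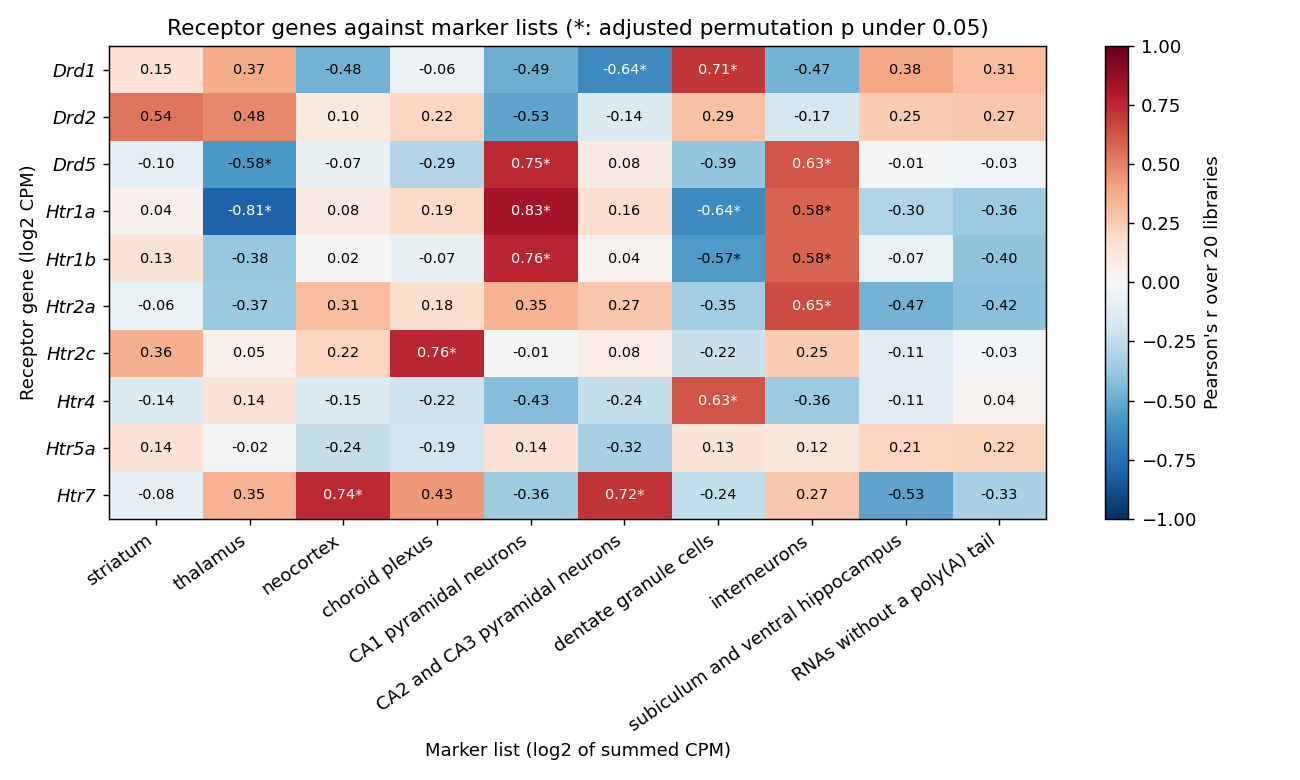
Pearson's r over the 20 libraries between the log2 CPM of each receptor gene (rows) and the log2 summed CPM of each marker list (columns), with blue for negative and red for positive values. Asterisks mark the 17 relations with an adjusted permutation p-value under 0.05, among them Htr1a with CA1 (0.83) and Htr2c with choroid plexus (0.76).

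**Figure D5:**
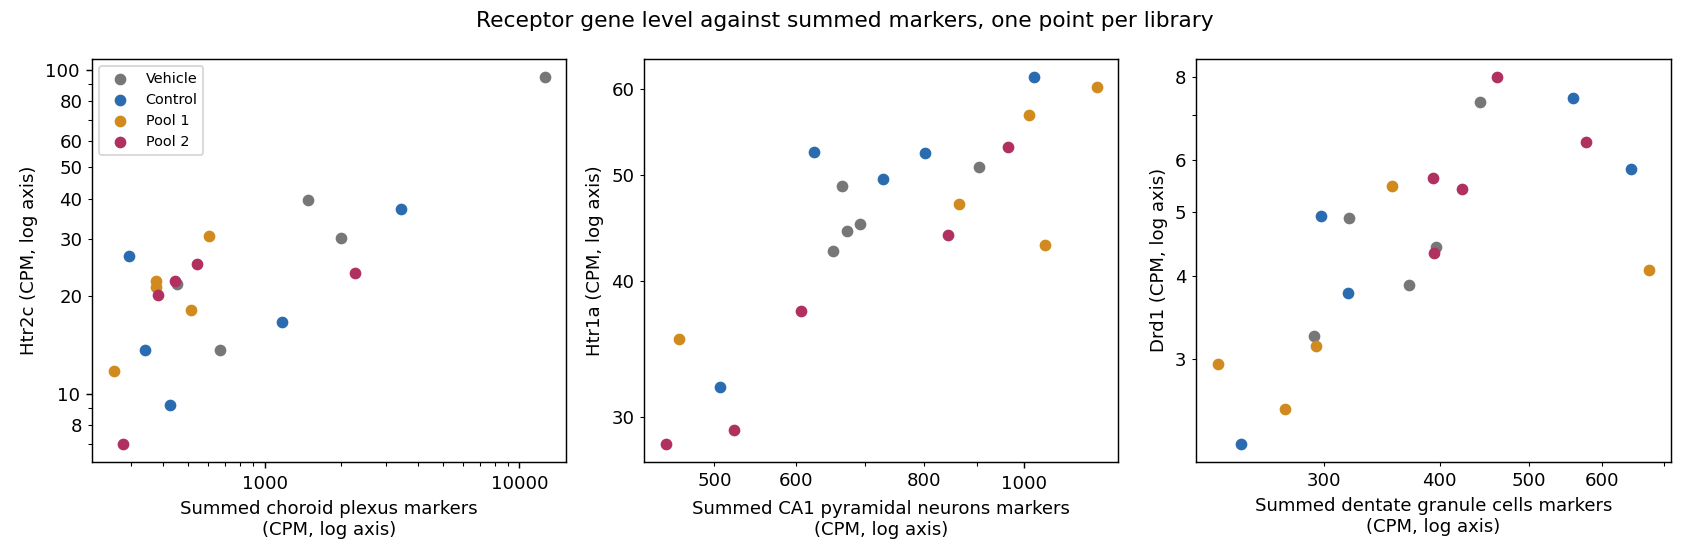
Level of Htr2c, Htr1a and Drd1 (CPM, log axis) against the summed markers of choroid plexus, CA1 pyramidal neurons and dentate granule cells (CPM, log axis), with 1 point per library coloured by group. The choroid plexus panel has 1 far Vehicle point at 12600 and 94.99 CPM, and in the dentate panel Pool 1 replicate 1 lies off the trend at 674 and 4.09 CPM.

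Among the receptor genes themselves, Htr1a and Htr1b moved most closely together over the 20 libraries (r = 0.71), followed by Drd5 with Htr1a (0.64) and Drd5 with Htr1b (0.62). Within groups these values were 0.68, 0.68 and 0.59. The most opposed over the 20 libraries were Drd1 and Drd5 (r = −0.53), Drd2 and Drd5 (−0.52) and Drd2 and Htr1a (−0.51). Within groups r was weaker for Drd1 and Drd5, at −0.32, and was −0.54 and −0.58 for the other pairs. These are given as descriptions of shared libraries. The other closest genes over all 14796 were Tmem200a for Htr1a (r = 0.90), Pex5l for Htr1b (0.85), Fam189a1 for Drd5 (0.87), Map4k3 for Htr2a (0.91), Ptprj for Htr4 (0.89) and Greb1l for Htr5a (0.87). Drd2 was closest to Glp1r (0.76), the gene of the glucagon-like peptide receptor, and Slc18a2 (0.74), which encodes the vesicular monoamine transporter, was also among its closest 3.

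Of 9 further dopamine and serotonin receptor genes, 8 were measured and 4 of these were too low to compare, namely Drd3, Drd4, Htr1d and Htr2b, with mean normalized counts of 1.00 to 4.19. Htr1f, Htr3a, Htr5b and Htr6 could be compared. Htr3a, which encodes a subunit of the serotonin-gated ion channel and marks a class of interneurons, was lower in Pool 2 than in Pool 1 (log2 fold change −0.54, SE 0.188, adjusted p = 0.382, exact permutation p = 0.0317). It had 4.80, 8.41, 12.17, 9.35 and 6.27 CPM in Pool 2, and only replicate 3 reached the Pool 1 range of 10.09 to 13.55 CPM. Htr2b passed as higher in Pool 2 against Control and against Pool 1 on 0 to 5 counts per library, and no fold is given for it. Against Control, 0 of 8 passed in Pool 1, beside 3.48% of all genes, and 1 of 8 (Htr2b) in Pool 2, beside 6.22%. Pool 2 against Pool 1 gave 1 higher (Htr2b) and 1 lower (Htr3a) of the 8, beside 6.82% of all genes. Against Control, the median log2 fold change of the 8 was 0.10 in Pool 1 and −0.12 in Pool 2, beside −0.01 and 0.00 over all genes. In Control against Vehicle 0 of 8 passed, beside 5.1% of all genes.

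Among 12 genes of monoamine synthesis, transport and breakdown, Tph2 stood out. Tph2 encodes the tryptophan hydroxylase that makes serotonin in raphe neurons, whose cell bodies lie outside the hippocampus and whose axons reach into it. It had 1.94, 1.52, 1.89, 1.64 and 1.66 CPM in Pool 1 and 4.89, 2.69, 3.00, 4.26 and 3.82 CPM in Pool 2, against 2.59, 2.82, 3.13, 2.39 and 3.23 CPM in Control. All 5 Pool 1 libraries lay below all Control and all Pool 2 libraries. Separation was seen for 0.861% of all genes in Pool 1 against Control and for 1.41% in Pool 2 against Pool 1. The log2 fold change of Tph2 was −0.71 in Pool 1 against Control (SE 0.186, adjusted p = 0.917, exact permutation p = 0.00794) and 0.40 in Pool 2 against Control (SE 0.179, adjusted p = 0.612, exact permutation p = 0.0873). Between the pools it was 1.10 (SE 0.184, edgeR adjusted p = 0.0896, exact permutation p = 0.00794), and this adjusted p-value was the lowest of all 25190 genes in that comparison. Vehicle had 1.73 to 2.75 CPM, with 3 of 5 libraries in the Pool 1 range, and Control was higher than Vehicle (0.47, exact permutation p = 0.0238). The value between the pools lay between 0.99 and 1.20 whichever single library was left out. The call in Pool 2 against Control was lost on leaving out any of 7 of the 20 libraries, with 0.28 without Pool 2 replicate 1, with both Vehicle replicate 4 and Pool 2 replicate 1 left out, and in a fit of only the groups compared.

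Slc22a3 was the other gene of that list past the threshold between the pools. It encodes an organic cation transporter that takes up monoamines and was higher in Pool 2 than in Pool 1 (log2 fold change 1.14, SE 0.352, adjusted p = 0.325, exact permutation p = 0.0317) at a mean normalized count of only 10.7. Without the 2 thalamus-rich libraries, which held its highest Pool 2 values (0.70 and 1.21 CPM), the log2 fold change was 0.60 and no longer passed. The dopamine transporter gene Slc6a3 and the serotonin transporter gene Slc6a4 were under the limit of 10. In all, 1 of the 12 was lower in Pool 1, 1 higher in Pool 2, 2 higher in Pool 2 against Pool 1 and 1 higher in Control against Vehicle, where 3.48%, 6.22%, 6.82% and 5.1% of all genes passed in either direction.

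Of 33 genes of the signalling steps below these receptors, 1 passed in Pool 1 against Control, 1 in Pool 2 against Control, 2 in Pool 2 against Pool 1 and 1 in Control against Vehicle, near the share of all genes in each. Adcy9, an adenylyl cyclase gene, was higher in Pool 1 than in Control (log2 fold change 0.33, SE 0.157, edgeR p = 0.0473, exact permutation p = 0.0159) and lower in Pool 2 than in Pool 1 (−0.39, exact permutation p = 0.00794). The first of these calls was lost on leaving out any of 12 of the 20 libraries, with 0.26 without Control replicate 1, and in 3 of 10 other settings, and the second without Pool 2 replicate 1 (−0.33) or replicate 4. Plcb4, a phospholipase C gene, was higher in Pool 2 than in Control (0.49, exact permutation p = 0.262) and than in Pool 1 (0.80, exact permutation p = 0.0794). Its highest values, 43.62 and 70.65 CPM, were in Pool 2 replicates 2 and 4, the thalamus-rich libraries, and without them its log2 fold changes were 0.03 and 0.32, neither past the threshold. Leaving out any of 17 of the 20 libraries also ended its call against Control. Caly, whose protein binds dopamine receptors, was higher in Control than in Vehicle (0.31, exact permutation p = 0.0714), close to the required size, and fell short of it without any of 5 libraries (0.25 without Control replicate 2). The median of the 33 genes lay between −0.06 and 0.05 in the 4 comparisons, and Ppp1r1b, the gene of the dopamine-regulated phosphoprotein DARPP-32, did not pass in any.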

How the data were processed

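RNA of 20 mouse hippocampal samples was analysed. The authors made stranded poly(A) libraries, used STAR to map 50-nt single-end reads onto GRCm38, took counts for GENCODE M20 genes over both sequencing rounds, dropped genes whose counts summed to under 10, and deposited raw counts, which are not normalized. Samples were grouped by their labels. The threshold on size and p-value is the one the study uses. Here counts of all 25190 genes were normalized by TMM and tested in 1 fit of the 4 groups with edgeR 4.0.16 (glmQLFit with robust spread, glmQLFTest) in R 4.3.3, with Benjamini-Hochberg adjustment over all genes and 95% intervals from the fit. Exact permutation tests of single genes used mean log2 CPM of 5 against 5 libraries, for the 10 receptor genes and the 7 pathway genes past the threshold in 4 comparisons, are not adjusted, and were added after seeing the data. CPM uses the TMM factors, and log2 CPM a prior count of 2. Depth was 20588280 to 25543939 counts per library, with a median of 23343139, and counting alone gave the receptor genes a coefficient of variation of 3.07% to 11.9%. Gene positions and exon lengths came from GENCODE M21.

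All 10 receptor genes are named, with the genes of the 3 pathway lists past the threshold and the 3 genes most correlated with each receptor gene among those of at least 1 CPM. Mean normalized counts use DESeq2 size factors, and a gene under 10 was called too low. The receptor genes, the pathway and marker lists and the alternatives were chosen with earlier results of these data known. A sign change of a log2 fold change was counted as a reversal where either value passed the threshold or it moved by more than 1 SE. Alternatives were DESeq2 1.42.0, its size factors in edgeR, filters on low counts, fits of only the groups compared, the default spread, the replicate number as a block, and sets of left-out libraries. Tested on simulated counts in which 200 of 25190 genes differed by 1 on the log2 scale between Pool 2 and Control, edgeR and DESeq2 each recovered 97.5% of them, and edgeR called 3.56% of the unchanged genes at the unadjusted threshold. The changed genes were drawn only from those with higher counts. Every difference of the 10 receptor genes in the fit of 20 libraries was smaller than 1, so this recovery does not apply to them.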

Additional observations from a re-analysis of the deposited data

Results flagged for a closer look

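Single libraries that stood apart from the other 4 of their group by Dixon's test were found for 4 of the 40 combinations of receptor gene and group, where chance alone gives about 2. Drd2 had 1.39 CPM in Control replicate 1, against 2.52 to 2.82 CPM in the other Control libraries. Drd5 had 23.6 CPM in Pool 2 replicate 5, against 16.2 to 17.7 CPM in the others. Htr2c had 6.99 CPM in Pool 2 replicate 1, against 20.1 to 25.1 CPM. Htr5a had 16.5 CPM in Pool 1 replicate 2, against 12.1 to 13.01 CPM.

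In the direct comparison of Pool 2 with Pool 1, 3 receptor genes were past the threshold, which uses p-values before adjustment. The log2 difference was 0.71 for Drd1, −0.34 for Drd5 and −0.53 for Htr2a, with edgeR adjusted p-values of 0.442, 0.336 and 0.415, so none held after adjustment over all genes. Drd1 was above every Pool 1 library in 3 of 5 Pool 2 libraries, and Drd5 below every one in 4 of 5. Htr2a was below every Pool 1 library in only 2 of 5, and its exact permutation p was 0.0952.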

How the results depend on the processing

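Of the alternative log2 fold changes of the receptor genes, 1163 kept their side of the threshold with no reversal as defined above, and 37 did not. Smaller sign changes near 0 are among those kept. Drd1 in Control against Vehicle, for example, went from 0.02 to −0.09 without the choroid-rich libraries. The count for Pool 2 against Control went from 0 to 1 with DESeq2, its size factors in edgeR, filterByExpr, the default spread and the 18 libraries without Vehicle replicate 4 and Pool 2 replicate 1 (Htr1a in each), with only the groups compared and with the replicate block (Htr2a, log2 fold change −0.37 and −0.32), and without the thalamus-rich libraries (Htr7). For Control against Vehicle the default spread gave 2, adding Htr2c. Over the 4 groups filterByExpr gave 1, and leaving out the 3 choroid-rich libraries gave 0. The sets without the thalamus-rich and the choroid-rich libraries were chosen after seeing the data. Leaving out 1 library at a time gave 0 to 1 receptor genes past the threshold in Pool 1 against Control, 0 to 1 in Pool 2 against Control, 1 to 5 in Pool 2 against Pool 1, 0 to 2 in Control against Vehicle, and 1 to 3 over the 4 groups. Reversals under that definition came in 3 cases, none past the threshold. Htr1b turned in Pool 1 against Control without Pool 1 replicate 2 (−0.069, with −0.069 to 0.37 over the left-out libraries). Htr4 turned in Control against Vehicle without Control replicate 4 (−0.076, with −0.076 to 0.30 over the left-out libraries). Htr7 turned in Pool 2 against Pool 1 without the thalamus-rich libraries (−0.36). The cause was not tested.

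No clear pairing by replicate number was seen, though this check cannot exclude a shared batch. Same-numbered libraries of different groups had a median correlation of 0.03, with 10 of 30 above 0.1. Libraries of different number and group had a median of −0.01, with 27 of 120 above 0.1. Only 1 of 20 libraries matched its own number best. With the replicate block, 3 receptor genes passed in Pool 2 against Pool 1, 1 in Control against Vehicle, 0 in Pool 1 against Control and 1 (Htr2a) in Pool 2 against Control. The smallest adjusted p-value of a receptor gene by any of the 8 alternatives set at the start was 0.126, for Drd5 in Pool 2 against Pool 1 with DESeq2. The widest limit is Htr2c, whose interval spans 1.04 to either side.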
